A study of Mus musculus with 238 samples.

Results

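Choroid plexus RNA was compared between old mice injected with plasma of young mice and old mice injected with saline. The 7 libraries with the tissue label choroid plexus and the treatment label YMP or PBS were taken from 238 libraries of the series: 3 from YMP mice (numbers 73, 77 and 81) and 4 from PBS mice (72, 76, 80 and 84). YMP is young mouse plasma and PBS is phosphate-buffered saline. Both were given by injection into the sinus behind the eye, and the dose, the number of injections and the plasma donors are not given in the sources used here. The recipients were male C57BL/6JN mice aged 19 months, each library came from a different mouse, and the labels of the groups differ by the injection alone. The same mice gave libraries of up to 14 other brain regions, and 9 female mice of a separate diet experiment (fed freely or restricted) gave 9 further choroid plexus libraries that serve as a background range.

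The choroid plexus is a vascularised fold of tissue in the brain ventricles. Its cuboidal epithelium secretes cerebrospinal fluid by moving sodium, chloride, bicarbonate and water, exports carrier proteins such as transthyretin, and seals the barrier between blood and cerebrospinal fluid with tight junctions. Its capillaries are leaky, so blood-borne proteins reach the underside of the epithelium, and the tissue responds to circulating cytokines. Type I interferon acts through the receptor IFNAR, which leads to the transcription of antiviral genes, and this programme is known from the plexus of aged mice.

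The 7 libraries held between 9.36 and 15.3 M counts each (median 10.7 M, where M is mega), and their TMM scaling factors lay between 0.966 and 1.02. Mitochondrial genes took 2.04% to 2.71% of the counts. Single-gene levels are given in CPM, the count of the gene for each M counts of its library, and they are listed in the order PBS 72, 76, 80, 84, then YMP 73, 77, 81. CPM is not divided by gene length, so levels are compared between libraries and not between genes.

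The tissue label was checked against plexus markers, and the library of YMP mouse 73 went against it. Transthyretin (Ttr), the carrier of thyroid hormone and the leading plexus transcript, stood at 7411, 8536, 9625 and 9438 CPM with PBS and 127, 14557 and 6328 CPM with YMP. The folate receptor Folr1 was measured at 76.3, 93.4, 102 and 87.9 CPM with PBS and 2.48, 158 and 73.1 CPM with YMP, and the water channel Aqp1 at 41.9, 43.2, 43.4 and 46.9 CPM with PBS and 0.523, 42.7 and 37.5 CPM with YMP. For Kl, the ageing-related co-receptor klotho, the values were 244, 281, 299 and 267 CPM with PBS and 14.3, 218 and 211 CPM with YMP. Mouse 73 was far below the other 6 libraries for each of these 4 genes. The summed level of 15 epithelial markers was 8650, 9987, 11191 and 10692 CPM with PBS and 175, 16147 and 7457 CPM with YMP. All 15 were detected in mouse 73, and all 15 lay below the lowest PBS library. In the 14 other regions of these mice the same sum had a median of 34.1 CPM over 91 libraries, with a range of 5.81 to 21323 CPM, the highest in the SVZ. Hence the library labelled choroid plexus of YMP mouse 73 held little plexus epithelial RNA, and results are given with and without it.

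**Figure D1:**
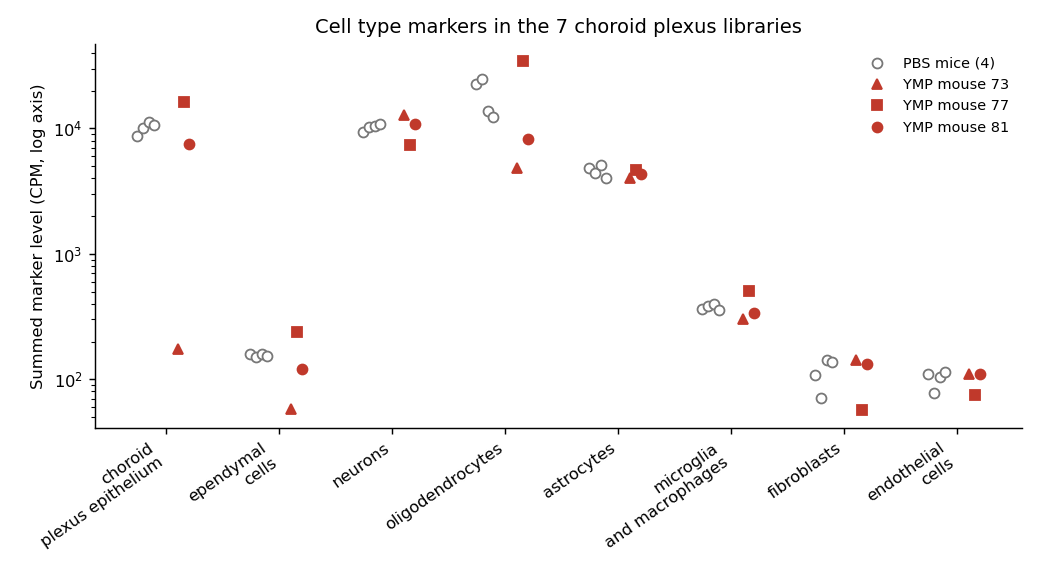
Summed levels of cell type markers (CPM, log axis) in each choroid plexus library, with 4 PBS libraries as open circles and the 3 YMP libraries as filled symbols. YMP mouse 73 sits at 175 CPM for epithelial markers, against 7457 to 16147 CPM in the other 6 libraries, and YMP mouse 77 is the highest for epithelial and oligodendrocyte markers.

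The other libraries also held much brain tissue besides plexus. Neuronal markers (12 genes) summed to 9405 to 10766 CPM with PBS and to 12765, 7400 and 10926 CPM with YMP. Oligodendrocyte markers (12 genes), which mark myelin, summed to 12326 to 24725 CPM with PBS and to 4820, 34161 and 8300 CPM with YMP. YMP mouse 77 thus had the most epithelial and myelin RNA, and YMP mouse 81 had less of both than any PBS mouse. Markers of ependymal cells, the ciliated lining of the ventricle (10 genes), gave 152 to 160.1 CPM with PBS and 57.6, 237 and 121 CPM with YMP. Microglia and macrophage markers (10 genes) gave 359 to 398 CPM with PBS and 302, 510.0 and 336 CPM with YMP. Blood markers (6 genes) stayed low, at 1.41 to 20.2 CPM with PBS and 3.02 to 6.598 CPM with YMP. In such bulk tissue, fewer cells of a type and less RNA per cell cannot be told apart.

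With all 7 libraries, no gene passed the test. Of 14216 genes tested, 0 (0%) had an edgeR quasi-likelihood p under 0.05 after Benjamini-Hochberg adjustment, and the smallest adjusted p was 0.9996. At an unadjusted p under 0.05 there were 232 genes with a higher level in YMP (1.63%) and 274 with a lower level (1.93%). In 478 genes (3.36%) each YMP library lay above each PBS library, and in 448 genes (3.15%) each lay below. DESeq2 called 4 genes (0.0281%): Junb and Egr2 higher, Gfra2 and Ppp2r3a lower. Without YMP mouse 73, edgeR again called 0 genes (0%) of 14293, with 239 higher (1.67%) and 137 lower (0.959%) at an unadjusted p under 0.05 and a smallest adjusted p of 0.215. In that comparison of 2 YMP with 4 PBS mice, YMP lay wholly above PBS in 830 genes (5.81%) and wholly below in 708 (4.95%). DESeq2 then called 16 genes, 14 higher (0.098%) and 2 lower (0.014%). The results that follow are therefore levels and directions of genes chosen by a rule, and where DESeq2 made a call that edgeR did not, both are given. Genes named for a small p within plexus were taken only among those with no overlap between YMP and PBS. Their lack of overlap was thus set by the choice and is not a result.

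Most genes of the interferon list stood higher in YMP mice 77 and 81 than in any PBS mouse, and none of them passed the edgeR test. YMP mouse 73 did not share these levels. Usp18, the protease that strips ISG15 from proteins and dampens interferon receptor signalling, was measured at 2.84, 2.06, 2.21 and 1.71 CPM with PBS and 1.24, 17.4 and 11.04 CPM with YMP. Ifit1, which binds viral RNA caps, stood at 5.61, 3.75, 3.28 and 4.81 CPM with PBS and 3.46, 19.6 and 17.0 CPM with YMP. Irf7, the transcription factor that amplifies interferon production, had 3.63, 2.91, 2.74 and 2.67 CPM with PBS and 2.29, 13.9 and 9.04 CPM with YMP. These 3 genes were chosen with mice 77 and 81 above each PBS mouse. Mouse 73, which the choice left out, was below each PBS mouse for Usp18 and Irf7 and within the PBS range for Ifit1. Without mouse 73 the log2 change of Usp18 was 2.69 (SE 0.27), that of Ifit1 2.09 (SE 0.23) and that of Irf7 1.95 (SE 0.24). The edgeR adjusted p was 0.215 for Usp18 and Ifit1 and 0.353 for Irf7, and the DESeq2 adjusted p was 1.63e-10, 2.74e-09 and 5.8e-06. Over the alternatives tried without mouse 73, the adjusted p ran up to 0.9952 for Usp18 and Ifit1 and 0.9985 for Irf7. With mouse 73 the log2 changes were 2.15 (SE 0.72), 1.62 (SE 0.53) and 1.49 (SE 0.53), with an edgeR adjusted p of 0.9996 for each.

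Genes for membrane-bound antiviral proteins were arranged in the same way. Bst2, or tetherin, which holds budding virus at the cell surface, stood at 9.17, 12.5, 10.3 and 10.5 CPM with PBS and 2.87, 46.0 and 26.4 CPM with YMP. Ifitm3, which blocks fusion of virus with endosomes, had 21.9, 19.5, 20.5 and 20.5 CPM with PBS and 9.73, 90.4 and 38.0 CPM with YMP. Rtp4, an interferon-inducible chaperone of G protein-coupled receptors, was measured at 5.08, 3.94, 4.08 and 4.27 CPM with PBS and 2.81, 24.8 and 11.7 CPM with YMP. These 3 genes, too, were chosen with mice 77 and 81 above the PBS range. In each, mouse 77 was the higher of the 2, and mouse 73 was below the PBS range. Their log2 changes without mouse 73 were 1.80 (SE 0.25), 1.67 (SE 0.31) and 2.09 (SE 0.30), with edgeR adjusted p of 0.486, 0.890 and 0.493. Ifi27l2a, a small interferon-inducible membrane protein gene, stood at 2.44, 2.91, 2.61 and 2.03 CPM with PBS and 0.588, 33.2 and 8.31 CPM with YMP, a log2 change of 3.08 (SE 0.50) without mouse 73. Its annotated span overlaps that of Ifi27, and the libraries carry no strand, so their reads cannot be told apart with certainty.

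Genes for proteins that act inside the cell were also highest in mice 77 and 81. Irgm1, a GTPase that acts on vacuoles holding pathogens, was measured at 16.8, 14.3, 13.6 and 12.9 CPM with PBS and 10.8, 27.0 and 26.3 CPM with YMP. Tgtp1, of the same family, had 7.12, 9.75, 7.49 and 7.91 CPM with PBS and 0.719, 20.6 and 16.2 CPM with YMP. Tgtp1 has a near-identical copy beside it, so its counts are uncertain. Oasl2, a member of the family of RNA-sensing oligoadenylate synthetases, had 6.46, 4.59, 5.35 and 4.06 CPM with PBS and 4.44, 12.4 and 10.9 CPM with YMP. The log2 changes without mouse 73 were 0.90 (SE 0.14) for Irgm1, 1.21 (SE 0.19) for Tgtp1 and 1.19 (SE 0.21) for Oasl2. Ifi27 stood at 102, 129, 139 and 135 CPM with PBS and 53.4, 281 and 155 CPM with YMP. It was above the PBS range in mice 77 and 81, with a log2 change of 0.82 (SE 0.25) without mouse 73.

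**Figure D2:**
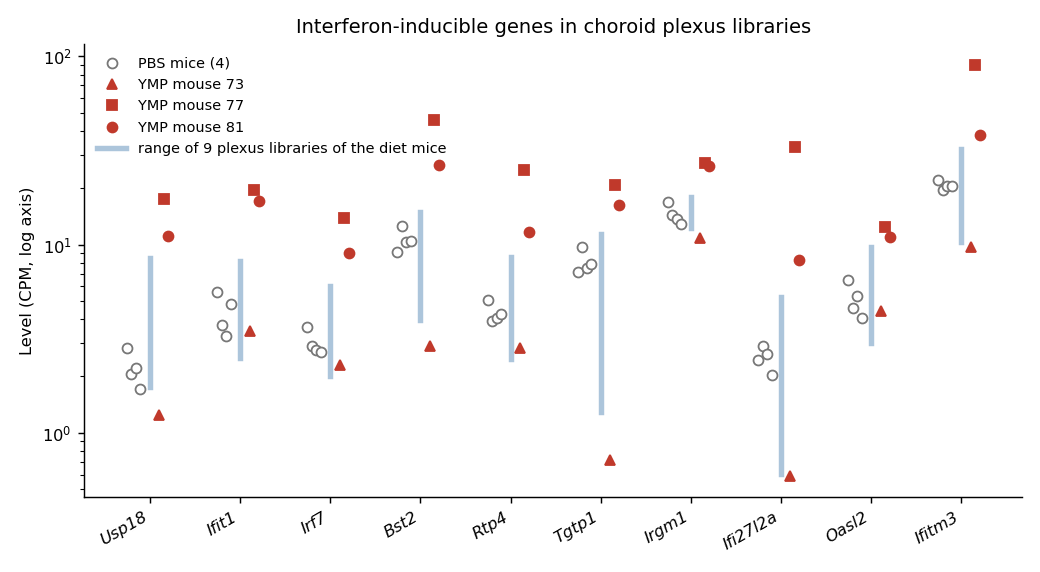
Levels (CPM, log axis) of the 10 genes with the smallest p among those above PBS without YMP mouse 73, with PBS libraries as open circles, YMP libraries as filled symbols and the range of 9 plexus libraries of diet mice as bars. YMP mice 77 and 81 lie above the PBS circles in each gene, and the YMP mouse 73 triangle lies within or below them.

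A promoter element known for interferon control was looked for in these genes, and windows of 4 of the 7 named genes with a promoter entry are printed. Of these windows 3 hold it and 1 does not. The element is the core of the interferon-stimulated response element, searched as GAAANNGAAA on both strands, and its matches are in capitals; overlapping matches were counted separately. Each sequence is RefSeq's window of 250 bases before to 50 bases after a start of the gene, build GRCm38.p6, printed 5′ to 3′ on the strand of the gene. For Irf7 the start used lies inside the gene's annotated span, chr7:141263183-141266499, and not at its end. The windows are chr19:34640639-34640938 on the plus strand for Ifit1 and, on the minus strand, chr8:71537423-71537722 for Bst2, chr7:141010695-141010994 for Ifitm3 and chr7:141266375-141266674 for Irf7.
Ifit1: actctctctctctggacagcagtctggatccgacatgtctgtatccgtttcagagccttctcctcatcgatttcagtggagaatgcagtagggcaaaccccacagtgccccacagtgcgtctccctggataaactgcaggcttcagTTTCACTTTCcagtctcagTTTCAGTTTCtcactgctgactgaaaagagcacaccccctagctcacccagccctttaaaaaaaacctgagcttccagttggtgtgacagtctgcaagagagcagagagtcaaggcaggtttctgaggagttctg
Bst2: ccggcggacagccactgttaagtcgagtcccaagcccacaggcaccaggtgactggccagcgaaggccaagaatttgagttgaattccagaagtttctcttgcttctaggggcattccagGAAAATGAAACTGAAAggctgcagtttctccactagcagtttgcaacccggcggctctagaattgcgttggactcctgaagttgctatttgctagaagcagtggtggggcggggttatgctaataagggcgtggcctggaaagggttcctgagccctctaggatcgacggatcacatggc
Ifitm3: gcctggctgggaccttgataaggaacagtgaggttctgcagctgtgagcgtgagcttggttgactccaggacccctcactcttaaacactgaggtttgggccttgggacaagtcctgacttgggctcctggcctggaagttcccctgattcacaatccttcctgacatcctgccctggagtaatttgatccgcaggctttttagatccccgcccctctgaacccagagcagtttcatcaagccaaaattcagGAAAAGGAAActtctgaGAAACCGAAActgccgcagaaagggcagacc
Irf7: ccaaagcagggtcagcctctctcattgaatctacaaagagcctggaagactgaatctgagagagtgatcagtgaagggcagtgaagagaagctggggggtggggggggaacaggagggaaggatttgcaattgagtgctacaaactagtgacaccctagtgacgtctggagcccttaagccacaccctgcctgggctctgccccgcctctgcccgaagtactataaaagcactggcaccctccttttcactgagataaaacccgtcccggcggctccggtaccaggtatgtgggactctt
The printed windows of Ifit1, Bst2 and Ifitm3 hold 2 matches each, those of Bst2 overlapping, and that of Irf7 holds 0. Of the 24 genes of the interferon list, 19 had a promoter entry, and 12 of these (63.2%) held a match, beside 1079 of 27025 genes (3.99%) with a promoter and 1131 of 32851 promoter windows (3.44%). A match is a description of letters and not a binding site.

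The whole interferon list, chosen like the other lists with earlier results of these data known, was read next. It holds 24 genes, and their summed level was 294 to 312 CPM with PBS and 190, 686 and 452 CPM with YMP in mice 73, 77 and 81. Mouse 77 and mouse 81 were each above the PBS range in 19 of 24 genes, and mouse 73 was below it in 14 and above it in 1. The share over all genes was not counted for single libraries. In the cytosolic ribosome list mouse 77 was above the PBS range in 37 of 37 genes and mouse 81 in 0. In the respiratory chain list mouse 77 was above it in 29 of 34 genes and mouse 81 in 1. With all 7 libraries 21 genes passed the filter on low counts, 18 had a log2 change above 0, the median was 0.42 beside -0.0039 over all genes, and 0 were called. At an unadjusted p under 0.05, 5 of the 21 were higher and 0 lower, beside 1.63% and 1.93% of all genes. Without mouse 73 all 24 were tested, 22 were above 0, the median was 0.85 beside -0.013 over all genes, and 0 were called by edgeR. DESeq2 called 8, beside 0.098% of all genes called higher: Usp18, Ifit1, Irf7, Bst2 (adjusted p 4.06e-06), Ifi27l2a (7.7e-06), Ifitm3 (0.00168), Oasl2 (0.0163) and Oas1a (0.0207). Off the list it also called Rtp4 (1.77e-05), Tgtp1 (0.00168), Irgm1 (0.00288), Apol9b (0.00288), Lgals3bp (0.0207) and Sgk1 (0.0163). Some genes passed the filter without mouse 73 only through mice 77 and 81, where they are high, so their direction was set in part by the filter. Isg15 had 0.469 to 0.736 CPM with PBS and 1.98 and 1.89 CPM in mice 77 and 81. Oas1a had 0.281 to 0.736 CPM with PBS and 4.27 and 2.21 CPM in these mice, and Apol9b was a further case. YMP lay wholly above PBS in 17 of 24 genes, Isg15 and Oas1a among them, and wholly below in 1, Ifit2, beside 5.81% and 4.95% of all genes. At an unadjusted p under 0.05, 17 of 24 were higher and 0 lower, beside 1.67% and 0.959% of all genes.

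Other members of the list were lower or overlapped between the groups. The 4 genes given here were picked after their values were seen. Ifit2, a relative of Ifit1, stood at 17.3, 15.9, 15.7 and 15.1 CPM with PBS and 14.05, 13.1 and 15.0 CPM with YMP. Irf1, a transcription factor that answers to type II interferon in particular, had 9.56, 10.8, 12.1 and 12.5 CPM with PBS and 10.5, 10.8 and 12.5 CPM with YMP. The chemokine gene Cxcl10 was at 0.857, 1.03, 1.20 and 1.92 CPM with PBS and 0.392, 0.938 and 0.526 CPM with YMP. Thus Ifit2 lay slightly below PBS in each YMP mouse, Irf1 overlapped between the groups, and Cxcl10 was lower in mice 73 and 81 than in any PBS mouse. Iigp1, a GTPase gene, also overlapped, at 2.77, 0.844, 3.01 and 2.99 CPM with PBS and 1.37, 2.71 and 2.73 CPM with YMP.

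Apol9b, an interferon-inducible apolipoprotein gene, was nearly absent with PBS. Its 2 counts in 4 PBS libraries came from a single mouse, whereas YMP mice 77 and 81 had 32 and 14 counts and mouse 73 had 0. The ratio of the 46 counts to the 2 counts, per library total, was 60.4, with a 95% interval of 15.8 to 513. This interval covers at most the counting error of independent counts and not the spread between mice. Apol9b has a near-identical copy, so part of these counts may belong to that copy. Lgals3bp, a secreted glycoprotein gene, was picked after its values were seen and stood at 60.2, 76.4, 78.5 and 75.0 CPM with PBS and 25.7, 234 and 115 CPM with YMP, a log2 change of 1.29 (SE 0.28) without mouse 73.

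Cell type marker sums left the PBS range in both mouse 77 and mouse 81, in opposite directions for those given here. In mouse 77 the epithelial sum (16147 CPM), the oligodendrocyte sum (34161 CPM) and the microglia and macrophage sum (510.0 CPM) were each above the PBS range, as was the interferon sum (686 CPM). In mouse 81 the same 3 sums (7457, 8300 and 336 CPM) were each below the PBS range, and the interferon sum of 452 CPM was above it. The ependymal sum was likewise above the PBS range in mouse 77 (237 CPM) and below it in mouse 81 (121 CPM). The neuronal sum went the other way, at 7400 CPM in mouse 77 and 10926 CPM in mouse 81, against 9405 to 10766 CPM with PBS. The part of cell makeup in the higher interferon values of either mouse was not tested. In the 9 diet libraries, from female mice, the interferon sum ran from 214 to 391 CPM with a median of 258 CPM. Mouse 77 exceeded each diet library in 13 of 24 genes and mouse 81 in 15. The share over all genes was not counted. Of the 37 cytosolic ribosome genes, mouse 77 exceeded each diet library in 35 and mouse 81 in 0. Usp18 reached 8.47 CPM and Ifit1 8.15 CPM in the highest diet library, below the 2 YMP mice.

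The other regions of the same mice show how these genes behaved outside the plexus. The interferon sum over 91 libraries of 14 regions had a median of 275 CPM and a range of 143 to 881 CPM, with the highest in the SVZ. Usp18 ranged from 0.948 to 32.7 CPM in these libraries and Bst2 from 1.44 to 48.6 CPM. The highest interferon sum and the highest Usp18 value were those of YMP mouse 77 in the SVZ, where its epithelial marker sum was 41.8 CPM. The highest Bst2 value was that of PBS mouse 76 in corpus callosum. PBS libraries of the SVZ, cerebellum and corpus callosum held other high values. Those of the SVZ and corpus callosum held plexus epithelial RNA, and the YMP libraries of these regions held little: the epithelial marker sum was 3168 to 21323 CPM with PBS and 41.8 to 85.5 CPM with YMP in the SVZ, and 5348 to 20015 CPM with PBS and 12.2 and 29.996 CPM with YMP in corpus callosum. The part of this epithelial RNA in the levels there was not tested. In cerebellum the epithelial sum was 23.9 to 37.3 CPM with PBS, and PBS mouse 72 had 26.5 CPM of Usp18. Without mouse 73, the log2 change of Usp18 in the 14 other regions ran from -1.11 to 1.47 with a median of -0.20 and was above 0 in 6 of them.

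The thalamus gave the highest of these changes, with an arrangement of the mice like that in plexus. Usp18 stood there at 4.03, 5.36, 2.10 and 5.04 CPM with PBS and 2.65, 9.43 and 13.2 CPM with YMP, and Ifit1 at 10.6, 5.81, 3.56 and 9.81 CPM with PBS and 4.99, 19.9 and 27.4 CPM with YMP. Mice 77 and 81 were above each PBS mouse for both genes, and mouse 73 was not. Without mouse 73 the log2 change in thalamus was 1.47 for Usp18 (unadjusted p 0.0036), 1.64 for Ifit1 (0.00279) and 0.97 for Irf7 (0.0038), with an edgeR adjusted p of 0.9999 for each. Over the 14 regions, the median change for Ifit1 was 0.065 (9 of 14 above 0) and for Irf7 0.30 (8 of 14). The median for Bst2 was -0.092 (5 of 14, highest 1.20 in posterior hippocampus), and for Ifitm3 it was -0.24 (5 of 14). Mice 77 and 81 were also above each PBS mouse for Usp18 in corpus callosum and for Oasl2 in corpus callosum, SVZ, pons and thalamus. The Oasl2 changes ran from -0.71 to 1.20 (8 of 14 above 0). In posterior hippocampus the interferon sum was 164 to 189 CPM with PBS and 274, 181 and 278 CPM with YMP. Mice 73 and 81 were above PBS there and mouse 77 was not. In medulla the sum was 306 to 551 CPM with PBS and 245 to 276 CPM with YMP.

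The difference between the plexus and the other regions was tested directly. In the 8 regions with all 7 mice (56 libraries), the YMP minus PBS change in plexus minus the mean change in the 7 other regions was called for 0 of 15342 genes (0%). Without mouse 73 it was called for 1 of 15503 (0.00645%), Apol9b, whose fitted value depends on the prior count because its counts are near the floor. With the mouse as a replicate block as well, 6 genes were called (0.0387%): Apol9b, Rtp4, Usp18, Ifi27l2a, Bst2 and Lgals3bp. The differences in log2 change were 2.61 (SE 0.45) for Usp18, 1.99 (SE 0.39) for Bst2, 1.93 (SE 0.32) for Rtp4 and 3.30 (SE 0.61) for Ifi27l2a. Their edgeR adjusted p were 0.0120, 0.0455, 0.00942 and 0.0264. For Ifit1 the same difference was 1.97, with an adjusted p of 0.0717. These fits estimate the spread of each gene over all regions together, so it comes mostly from libraries outside the plexus. Within plexus, mice 77 and 81 differed more than any PBS pair (chi-square per degree of freedom 70.6 against 6.78 to 23.1). The fit within plexus without mouse 73 called 0 genes.

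The SVZ, where the PBS libraries alone held much plexus epithelial RNA, was then left out. Without mouse 73 the change within the SVZ was -0.87 for Bst2, -1.74 for Ifi27l2a, -1.17 for Lgals3bp and 0.36 for Usp18. Leaving the SVZ out as well as mouse 73, an alternative chosen after these values were seen, gave 2 called genes of 15418 (0.013%), Usp18 and Apol9b. With the mouse block added it gave 8 (0.0519%): Usp18, Apol9b, Rtp4, Irgm1, Ifit1, Irf7, Cox6a2 and Ifi27l2a. Bst2 and Lgals3bp were not among them, with differences of 1.93 and 1.46 and edgeR adjusted p of 0.0724 and 0.161. The difference for Usp18 was 2.67 (SE 0.38, edgeR adjusted p 0.00224), that for Rtp4 1.998 (SE 0.33, 0.00827) and that for Ifit1 2.08 (SE 0.38, 0.0263). Single PBS libraries of other regions in this comparison also held epithelial RNA, up to 3814 CPM in caudate putamen, and their part was not tested.

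With all 7 mice, the 5 smallest p belonged to Ifi27l2a, Krt12, Apol9b, Cox6a2 and Usp18, of which Krt12, a keratin gene, stood at 3.83, 5.91, 3.08 and 7.16 CPM with PBS and 10.6, 17.8 and 5.05 CPM with YMP in plexus and Cox6a2, a muscle-type subunit of cytochrome oxidase, at 4.09, 5.53, 3.68 and 5.45 CPM with PBS and 5.29, 14.2 and 6.20 CPM with YMP.

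The summed level of immediate early genes, which cells transcribe soon after a stimulus, lay above PBS in each YMP library, mouse 73 included, and 0 of them were called by edgeR. The AP-1 subunit gene Junb stood at 72.0, 73.4, 57.2 and 74.5 CPM with PBS and 121, 102 and 101 CPM with YMP, a log2 change of 0.65 (SE 0.13). Egr2, a zinc finger transcription factor gene, had 4.55, 4.97, 3.01 and 4.60 CPM with PBS and 8.30, 8.13 and 10.4 CPM with YMP, a log2 change of 1.07 (SE 0.21). Both genes were chosen for groups that do not overlap. The DESeq2 adjusted p was 0.039 for both, against 0.9996 in edgeR. Without mouse 73 their log2 changes were 0.56 and 1.13, with DESeq2 adjusted p of 0.408 and 0.120. Egr4, which is not on the list, had 28.0, 31.8, 27.2 and 38.8 CPM with PBS and 59.9, 46.0 and 46.4 CPM with YMP, and Arc, a regulator of synaptic receptor turnover, 98.9, 137, 81.6 and 88.8 CPM with PBS and 161, 156 and 126 CPM with YMP. Arc overlapped between the groups and Egr4 did not; both are expressed in active neurons. The neuronal marker sum was above the PBS range in mouse 73 (12765 CPM) and mouse 81 (10926 CPM) and below it in mouse 77 (7400 CPM), and its part in these values was not tested.

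The 22 immediate early genes summed to 862 to 993 CPM with PBS and to 1260.4, 1171 and 1116 CPM with YMP, with no overlap. The sum of the plexus receptor and carrier list did not overlap either, and was lower in YMP. It was 1200 to 1318 CPM with PBS and 688, 1068 and 1121 CPM with YMP. Of the 22, 18 had a log2 change above 0 with a median of 0.31, and 5 lay wholly above PBS in all 3 YMP mice: Junb, Egr1, Egr2, Ier2 and Klf6, beside 3.36% of all genes. At an unadjusted p under 0.05, 5 were higher and 0 lower, beside 1.63% and 1.93%. Without mouse 73 the median was 0.26 with 20 of 22 above 0, and DESeq2 called 0 of the list, 2 with all 7. Jun, the partner of Fos, stood at 119, 109, 146 and 128 CPM with PBS and 163, 65.5 and 170.1 CPM with YMP, and Jund at 202, 232, 192 and 204 CPM with PBS and 209, 332 and 199 CPM with YMP, so these 2 AP-1 genes overlapped between groups. The diet libraries spanned 851 to 1301 CPM for the sum, a range that holds the YMP values. The hour of sampling is not given in the sources used here.

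Other genes with non-overlapping groups and small p in the comparison of all 7 libraries were mostly of modest size. C1qtnf4, a secreted C1q-related protein gene, stood at 94.6, 98.1, 90.6 and 99.6 CPM with PBS and 160.2, 158 and 117 CPM with YMP, a log2 change of 0.61 (SE 0.14). Pgam2, a phosphoglycerate mutase of glycolysis, had 4.22, 4.50, 4.68 and 5.45 CPM with PBS and 13, 7.82 and 7.36 CPM with YMP, a log2 change of 1.01 (SE 0.23). Cyth2, an exchange factor for ARF GTPases, had 73.6, 74.6, 68.0 and 77.9 CPM with PBS and 97.8, 103 and 88.1 CPM with YMP. By the choice of genes all 3 YMP libraries were above the 4 PBS libraries, and mouse 73 was the highest for Pgam2 and C1qtnf4. The log2 changes of Kti12, Ccdc106, Tbc1d10a and Mpi, the isomerase that feeds mannose into glycan synthesis, were 0.43, 0.46, 0.37 and 0.31.

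Lower values in YMP were led by a growth factor receptor. Gfra2, the co-receptor for neurturin, stood at 26.4, 23.8, 24.7 and 24.0 CPM with PBS and 15.3, 14.8 and 17.2 CPM with YMP, a log2 change of -0.64 (SE 0.10), with a DESeq2 adjusted p of 0.00435 and an edgeR adjusted p of 0.9996. Ppp2r3a, a regulatory subunit of protein phosphatase PP2A, had 53.8, 51.0, 48.2 and 49.6 CPM with PBS and 32.9, 36.5 and 36.6 CPM with YMP, a log2 change of -0.51 (SE 0.095) and a DESeq2 adjusted p of 0.0183. In both genes, chosen for YMP mice that all lie below PBS, the 3 YMP mice were close to each other. Without mouse 73 the log2 change was -0.61 for Gfra2 and -0.46 for Ppp2r3a, with DESeq2 adjusted p of 0.175 and 0.553. Igfbp5, which binds insulin-like growth factors, was measured at 49.99, 52.6, 50.6 and 50.3 CPM with PBS and 33.1, 42.5 and 34.7 CPM with YMP, and the unconventional myosin gene Myo10 at 41.6, 37.0, 36.3 and 38.1 CPM with PBS and 28.5, 27.8 and 31.3 CPM with YMP. Dbt, a subunit of the complex that degrades branched-chain amino acids, stood at 25.5, 25.8, 26.7 and 25.6 CPM with PBS and 21.1, 19.1 and 18.6 CPM with YMP. The remaining 5 named lower genes, Gxylt1, Ccdc9b, Acsf3, Vwa5a and Fundc2, had log2 changes of -0.50, -0.81, -0.39, -0.54 and -0.31.

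**Figure D3:**
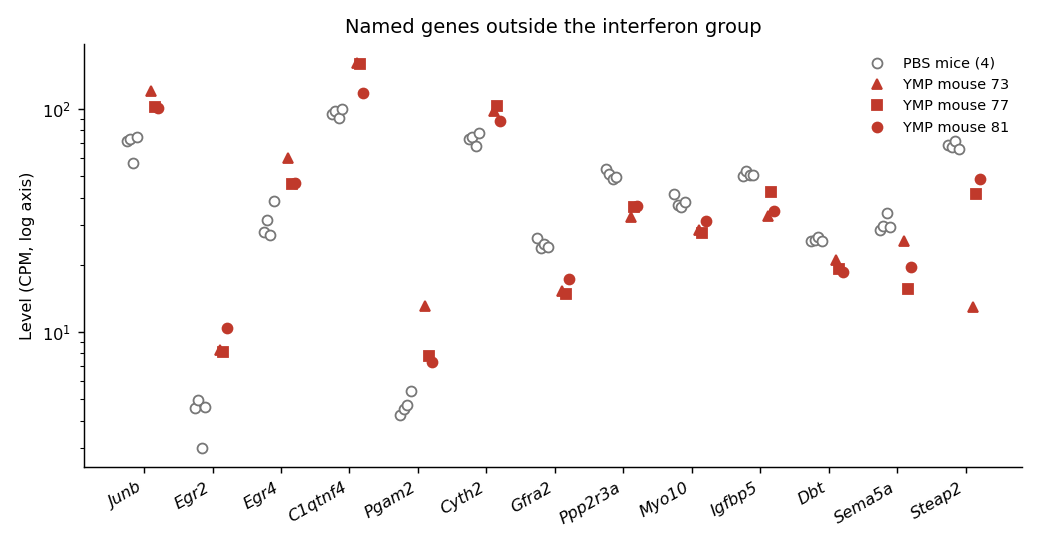
Levels (CPM, log axis) of named genes outside the interferon group in each choroid plexus library, with PBS as open circles and YMP as filled symbols. Junb, Egr2, Gfra2 and Ppp2r3a were chosen with the 3 YMP libraries, mouse 73 included, on one side of the 4 PBS libraries. Steap2, chosen without mouse 73, is 12.9 CPM in mouse 73 and 41.7 to 48.4 CPM in the other YMP mice.

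Without mouse 73, 2 genes were called lower by DESeq2. Steap2, a metalloreductase gene for iron and copper, stood at 68.7, 67.2, 72.1 and 66.1 CPM with PBS and 12.9, 41.7 and 48.4 CPM with YMP, a log2 change of -0.59 (SE 0.11) without mouse 73 and a DESeq2 adjusted p of 0.0101. Sema5a, which encodes an axon guidance protein, had 28.8, 29.8, 34.2 and 29.6 CPM with PBS and 25.5, 15.6 and 19.6 CPM with YMP, a log2 change of -0.79 (SE 0.14) and a DESeq2 adjusted p of 0.0163. Both were among the genes chosen with mice 77 and 81 below the 4 PBS mice. The other named lower genes of that comparison included Slc16a12, a monocarboxylate carrier, at 13.8, 15.0, 19.3 and 17.3 CPM with PBS and 3.07, 11.3 and 10.1 CPM with YMP, and Angpt1, the ligand of the endothelial receptor TIE2, at 11.9, 11.2, 11.4 and 10.8 CPM with PBS and 10.5, 7.30 and 8.94 CPM with YMP. Sntb1 and Xpo4 had log2 changes of -0.57 (SE 0.18) and -0.52 (SE 0.17) without mouse 73.

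Plexus functions showed no list with a called member in edgeR. For the ion and water transport list (27 genes), the median log2 change was -0.31 with all 7 libraries and -0.0087 without mouse 73. The sodium pump subunit Atp1b1 stood at 2201, 2435, 2391 and 2189.7 CPM with PBS and 2572, 1717 and 2323 CPM with YMP and carbonic anhydrase Car2 at 768, 895, 693 and 556 CPM with PBS and 289.6, 1069.6 and 465 CPM with YMP. Both overlapped between groups, and 3 members lay below PBS in each YMP library, Abcc1, Abcc4 and Trpm3, beside 3.15% of all genes. Mouse 73, with little epithelial RNA, was below the PBS range in 20 of the 27, a share not counted over all genes. Without it the same 3 lay below PBS, beside 4.95% of all genes. The secreted protein list (21 of 22 tested) had a median of -0.29 with mouse 73 and 0.19 without it. Autotaxin, encoded by Enpp2, stood at 4738, 5977, 6164 and 4437 CPM with PBS and 236, 6458 and 4082 CPM with YMP, and transferrin, encoded by Trf, at 2888, 3307, 2175 and 1727 CPM with PBS and 472, 5004 and 1329 CPM with YMP. For both, mouse 77 was above the PBS range and mice 73 and 81 were below it, the order of the epithelial marker sums. Receptors and carriers (18 genes) had medians of -0.34 and -0.21, and of their members Kl and Lepr, the leptin receptor gene, lay below PBS in each YMP library (3.15% of all genes). Mouse 73 was below the PBS range in 12 of these 18. Without it 3 lay below PBS, Kl, Lepr and Tfrc, beside 4.95% of all genes. Epithelial junction genes (13 of 15 tested) had medians of -0.26 and 0.19, and Cldn2, the pore-forming claudin, stood at 44.6, 58.8, 65.1 and 46.0 CPM with PBS and 1.96, 62.0 and 46.3 CPM with YMP. Plexus transcription factors (9 of 12) had medians of -0.36 and 0.0050, and Otx2 stood at 28.5, 32.3, 39.999 and 28.5 CPM with PBS and 0.849, 40.7 and 32.7 CPM with YMP. Motile cilia (22 genes) had medians of -0.34 and -0.058, with 4 genes below PBS in each YMP library: Rsph4a, Cfap43, Spag17 and Ak7, again beside 3.15%. Mouse 73 was below the PBS range in 17 of the 22, and without it the same 4 lay below PBS, beside 4.95%.

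Stromal and immune lists were described in the same way. Fibroblast and collagen genes (22) had medians of -0.22 with mouse 73 and -0.27 without it, and Dcn, a proteoglycan of the stroma, stood at 39.8, 22.9, 70.1 and 56 CPM with PBS and 87.9, 17.3 and 67.7 CPM with YMP. Endothelial and mural genes (23) had medians of -0.048 and -0.096, with the glucose carrier Slc2a1 at 147, 117, 122 and 135 CPM with PBS and 95, 141 and 122 CPM with YMP. Macrophage and other immune genes (18 of 29) had medians of -0.13 and 0.038, and lysozyme (Lyz2) was measured at 81.6, 64.4, 62.5 and 48.8 CPM with PBS and 13.2, 106 and 66.9 CPM with YMP. Complement and MHC class I (23 of 25) had medians of -0.20 and -0.0079, with C4b at 252, 215, 193 and 152 CPM with PBS and 65.5, 247 and 135 CPM with YMP and B2m at 119.7, 112, 129 and 114 CPM with PBS and 75.8, 179 and 114 CPM with YMP. B2m, the light chain of MHC class I and itself interferon-inducible, was above the PBS range in mouse 77 alone of the 3 YMP mice. Inflammatory signalling genes (19 of 25) had medians of -0.032 and 0.14. The adhesion gene Vcam1, which plexus and endothelium show after inflammatory stimuli, stood at 92.6, 105, 109.6 and 92.5 CPM with PBS and 39.2, 117 and 96.4 CPM with YMP.

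Stress and hormone lists differed in which libraries carried them. The heat shock and unfolded protein list (29 of 30 tested) had medians of 0.079 with mouse 73 and 0.11 without it, with 0 genes wholly above PBS in the first case and 9 in the second, beside 3.36% and 5.81% of all genes. These 9 were Dnajb1, Hspb1, Hspe1, Hspa5, Pdia4, Sdf2l1, Creld2, Manf and Xbp1, and 7 list genes were higher at an unadjusted p under 0.05 without mouse 73, beside 1.67% of all genes. Glucocorticoid-responsive genes (19 of 20) had medians of 0.19 and 0.31, with 2 and 7 genes wholly above PBS, beside the same 3.36% and 5.81%. Among them Sgk1, a kinase that raises sodium transport, stood at 175, 243, 150.2 and 159 CPM with PBS and 91.3, 660.1 and 319 CPM with YMP, with a log2 change of 1.46 (SE 0.32) and a DESeq2 adjusted p of 0.0163 without mouse 73. Mouse 77 was the highest for Sgk1, which oligodendrocytes also express, and that library had the highest oligodendrocyte sum, whose part was not tested. Part of the same group, Klf9, stood at 134, 142, 141 and 126 CPM with PBS and 150.5, 152 and 154 CPM with YMP, and Mt1, a metallothionein, at 391, 276, 321 and 258 CPM with PBS and 242, 470.3 and 291 CPM with YMP.

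**Figure D4:**
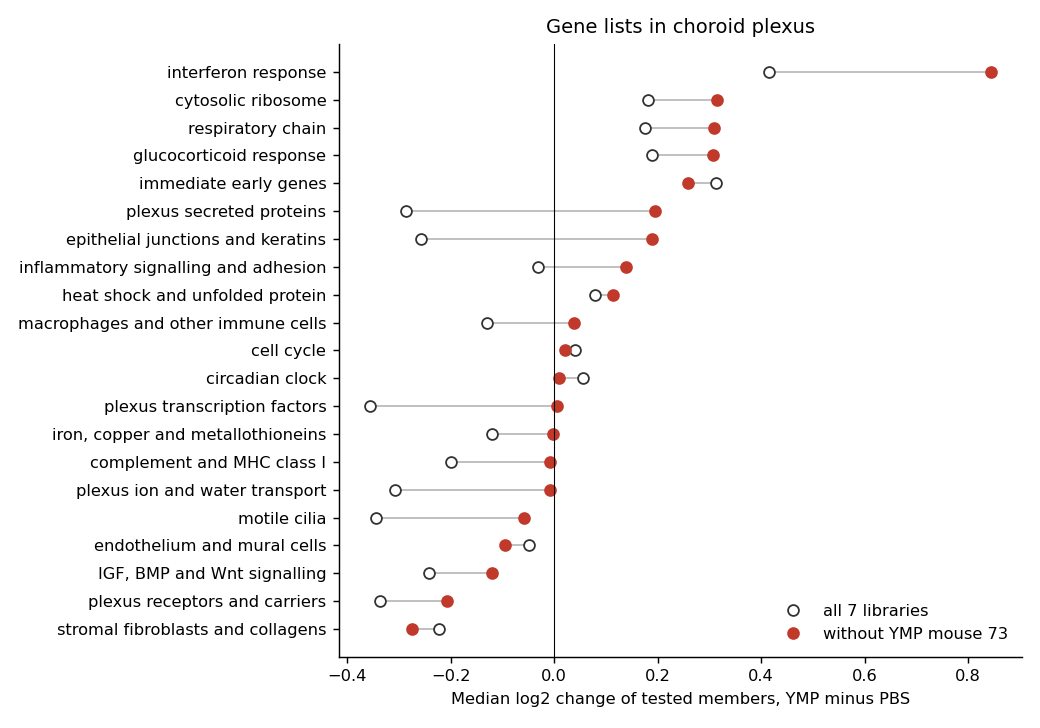
Median log2 change (YMP minus PBS) of the tested members of each of 21 gene lists, with all 7 libraries as open circles and without YMP mouse 73 as filled circles. The interferon list has the highest median in both, 0.42 and 0.85. All lists were chosen with earlier results of these data known. The plexus secretion, junction and transcription factor lists pass from below 0 to above 0 when mouse 73 is left out, as do the macrophage and inflammatory signalling lists.

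Housekeeping lists were highest in mouse 77. Cytosolic ribosome genes (37) all had a log2 change above 0, with medians of 0.18 and 0.32, and their sum was 7195 to 7640 CPM with PBS and 6856, 11302 and 7092 CPM with YMP. Mouse 77 was thus high, and mice 73 and 81 were below the PBS range. Respiratory chain genes (34 of 35) had medians of 0.18 and 0.31, with sums of 10881 to 12081 CPM with PBS and 10724, 15145 and 11171 CPM with YMP. Clock genes (20) had medians of 0.057 and 0.0092, with Nfil3 above PBS and Nr1d2 below it in each YMP library (3.36% and 3.15% of all genes). Iron, copper and metallothionein genes (19 of 20) had medians of -0.12 and -0.0020, and Fth1, the ferritin heavy chain, stood at 6262, 6326, 4693 and 4046 CPM with PBS and 2760.0, 10307 and 3429.8 CPM with YMP. Growth factor signalling genes of the IGF, BMP and Wnt families (27 of 28) had medians of -0.24 and -0.12, with Igfbp5 and Smad6 below PBS in each YMP library (3.15% of all genes). Mouse 73 was below the PBS range in 19 of these 27, a share not counted over all genes. Without it 3 lay below PBS, Igfbp5, Smad6 and Axin2, beside 4.95% of all genes. Cell cycle genes (14 of 20) had medians of 0.041 and 0.021, with Cdkn1a above PBS in mice 77 and 81.

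The count of genes depended on single libraries. Leaving out YMP mouse 77 from the 7 libraries gave 0 called genes and 2799 at an unadjusted p under 0.05, against 506 with all 7. With mice 73 and 81 both left out, mouse 77 alone against 4 PBS mice gave 1411 called genes, a comparison of a lone library whose spread was taken from the PBS mice. Usp18 and Bst2 were chosen with YMP mice 77 and 81 both above PBS, so a higher level in each mouse taken alone was set by that choice. Against the 4 PBS mice, the log2 change of Usp18 was 3.00 with mouse 77 and 2.27 with mouse 81, and that of Bst2 was 2.17 and 1.30. Of the 24 interferon list genes, 19 were above the PBS range in mouse 77, 19 in mouse 81 and 1 in mouse 73. The share over all genes was not counted for single libraries. Of the 37 cytosolic ribosome genes, mouse 77 was above the PBS range in 37 and mouse 81 in 0.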

How the data were processed

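Smart-Seq2 cDNA of homogenised tissue was tagmented with Nextera XT and sequenced without strand information, per the labels' protocols. The submitters' processing notes name Trim Galore 0.3.7, STAR 2.5.3a, DESeq2 and the build GRCm38; the counting program and annotation are not given in the sources used here. The values used are the whole-number read counts per gene deposited by the authors, 21076 genes in 238 libraries, and 0 columns were left without a sample. Here the 7 choroid plexus libraries were fitted with edgeR 4.0.16 (R 4.3.3): filterByExpr (10 counts in a library, 15 in all), TMM, glmQLFit and glmQLFTest, Benjamini-Hochberg adjustment over all genes tested, called at 0.05. The comparison with other regions was 1 contrast over 56 libraries, with the spread of each gene estimated over all regions together. DESeq2 1.42.0 and limma 3.58.1 (voom with sample quality weights) were alternatives, with other normalisation, filters, left-out libraries and a fit of all 16 plexus libraries. CPM are counts per library total in M. The fits were tested on simulated data. The interval of Apol9b takes each count as independent. Counts carry PCR duplicates, so it may be too narrow even for counting error, and it does not cover the spread between mice.

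Each library is 1 mouse, and the mouse number pairs libraries across regions, never across treatments. Deviations from group means correlated at 0.066 between regions of the same mouse and at -0.011 between mice. Over the 9 replicate pairs the chi-square per degree of freedom was at least 6.78, and each library was kept. Named genes were the 10 higher and 10 lower with the smallest p at a mean of at least 5 CPM and no overlap between groups, with all 7 libraries and without mouse 73, then list members called or highest with PBS, and the 5 smallest p against other regions. There were 21 gene lists and 9 marker lists, and 2 list genes had no entry in the table. The comparison, genes and lists were chosen with earlier results of these data known.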

Additional observations from a re-analysis of the deposited data

Results flagged for a closer look

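Differences between the plexus and the other regions were called without YMP mouse 73, with the spread of each gene estimated over all regions together. Apol9b differed by 5.48 in log2 change, a fitted value that depends on the prior count. With the mouse as a block, Apol9b differed by 5.39, Ifi27l2a by 3.30, Usp18 by 2.61, Bst2 by 1.99, Rtp4 by 1.93 and Lgals3bp by 1.58, each higher in plexus. Without the SVZ as well, the difference was 2.72 for Usp18 and 5.67 for Apol9b, and with the block added 2.67 for Usp18, 5.57 for Apol9b, 3.06 for Ifi27l2a, 2.08 for Ifit1, 1.998 for Rtp4, 1.85 for Irf7, 1.60 for Cox6a2 and 0.92 for Irgm1.

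Among 132 groups examined for a lone sample far from the others, 5 were found, and 6.6 would be found by chance (about 1 in 20). Only groups of 4 PBS libraries were examined, since groups of 3 are not tested, so the YMP libraries were not examined in this way. PBS mouse 84 was low for the inflammatory signalling sum (392.3 CPM) and high for the blood marker sum (20.2 CPM). PBS mouse 80 was low for Junb (57.2 CPM). Ccdc39, a gene of motile cilia, was low in PBS mouse 76 (25.6 CPM), and Apol9b had its PBS counts in mouse 72 (0.132 CPM).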

How the results depend on the processing

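In the comparison of all 7 libraries, 0 genes were called under each edgeR and limma alternative tried, and DESeq2 called 4. Leaving out each library in turn also gave 0. Without YMP mouse 73, an alternative scaling, filters, quality weights and the fit with the diet libraries gave 0, and DESeq2 gave 16. Leaving out a further library of those 6 gave 0 to 1411, the highest without mouse 81, where mouse 77 is assumed to vary like the PBS mice. Against other regions, 0 genes were called with the replicate block by mouse and 0 without the SVZ, 1 without mouse 73, and 6 without mouse 73 with the replicate block. Leaving out both mouse 73 and the SVZ, a choice made after seeing the data, gave 2, and 8 with the replicate block. The causes were not tested. For single genes and lists, 665 values under the alternatives kept their direction and side of the threshold or stayed within 1 SD, 52 moved by more, 40 came past the threshold in the same direction, and 0 called values changed direction. Quality weights were lowest for YMP mouse 77 (0.150). Limits: 2 or 3 YMP mice, plexus RNA mixed with brain tissue, and genes near the floor such as Apol9b, whose fitted change depends on the prior count.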

Other observations

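Plexus epithelial markers varied between libraries outside the comparison as well. In the 9 choroid plexus libraries of the diet mice their sum ran from 732 to 9759 CPM with a median of 4400.5 CPM. In the SVZ of the plasma mice the same sum was 3168 to 21323 CPM in the 4 PBS libraries and 41.8 to 85.5 CPM in the 3 YMP libraries. In corpus callosum it was 5348 to 20015 CPM in 3 PBS libraries and 12.2 and 29.996 CPM in 2 YMP libraries. PBS and YMP thus did not overlap in either region, and the highest PBS library of each lay above the highest plexus library (16147 CPM).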
